A study of Mus musculus with 8 samples.

Results

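Semaphorins and plexins, ephrins and Eph receptors, Slits and Robos, and netrins and UNC5 receptors are the classical families of axon guidance. Their transcripts were measured in primary hepatic stellate cells of male wild-type C57BL/6 mice, transfected with an siRNA against PAK4 (siPAK4, 4 libraries) or with a control siRNA (siControl, 4 libraries). The comparison asked how transcript levels differ when PAK4, a serine/threonine kinase of the p21-activated family and an effector of CDC42, is low. All libraries carried the same batch label. The labels do not say how old the mice were, how many were pooled, how long the cells were cultured or how pure they were. Replicates were numbered 1 to 4 in each group without saying whether each was its own animal or culture, and a p-value here reflects only how far these samples spread, a spread that may be technical. Members were the protein-coding genes of the authors' table whose symbols begin with those family names, 68 of the 45777 genes listed: 20 semaphorins, 9 plexins, 5 ephrin-A and 3 ephrin-B ligands, 9 EphA and 5 EphB receptors, 3 Slits, 4 Robos, 4 netrins and 6 genes whose symbols begin with Unc5. Among the last, Unc50 shares only the spelling of its symbol with the netrin receptor genes Unc5a, Unc5b, Unc5c and Unc5d. Unc5cl, described as unc-5 family C-terminal like, is not named as a netrin receptor. Both are counted here as the naming rule places them.

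Guidance receptors steer cell shape and movement by acting on small GTPases and the actin cytoskeleton. Plexins are receptors of semaphorins and carry a GTPase-activating domain in their cytoplasmic part, while Eph receptors are tyrosine kinases activated by membrane-bound ephrins on a neighbouring cell, where the ephrins can signal in return. Slits bind Robo receptors, and netrins, which resemble parts of laminins, bind DCC, neogenin and UNC5 receptors. In blood vessels some of these pairs separate arteries from veins and guide sprouting, and in the liver sinusoid the stellate cell lies against the endothelial cell as a pericyte does.

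Counts summed to between 55728583 and 59205049 in siPAK4 libraries and between 57297561 and 61535063 in siControl libraries. Pak4 had 7.73, 5.70, 5.17 and 6.69 CPM in siPAK4 replicates 1 to 4, against 18.6, 17.7, 16.4 and 16.2 CPM in siControl replicates 1 to 4. All 4 siPAK4 libraries lay below the siControl libraries (log2 fold change −1.44, SE 0.118, adjusted p = 9.4e-06). Levels are given as CPM, each count over a library size scaled by the TMM method of edgeR, and, where genes are compared with each other, as the TPM values deposited by the authors, which account for transcript length. The labelled cell type was checked with 20 stellate cell markers, whose summed level ranged from 1076 to 1338 TPM in siPAK4 and from 1438 to 1699 TPM in siControl libraries, with 12 lower and 1 higher of 19 tested. Lrat, the retinol-esterifying enzyme of quiescent stellate cells, averaged 0.0856 TPM in siPAK4 and 0.0108 TPM in siControl libraries and was too low to test. Markers of some other liver cells had higher sums than the stellate cell markers in both groups. The 17 endothelial markers summed to between 3073 and 4748 TPM in siPAK4 and between 4738 and 4916 TPM in siControl libraries, with 6 lower and 6 higher of 17 tested. The 16 macrophage markers summed to between 10382 and 14969 TPM in siPAK4 and between 17696 and 20277 TPM in siControl libraries, with 9 lower and 0 higher of 15 tested. Most of that sum was Lyz2. Mesothelial and portal fibroblast markers summed to between 218 and 279 TPM in siPAK4 and between 518 and 643 TPM in siControl libraries, with 6 lower and 0 higher of 11 tested, and vascular smooth muscle markers had 7 lower and 1 higher of 9. Hepatocyte markers summed to between 9.85 and 23.7 TPM in siPAK4 and between 4.13 and 6.66 TPM in siControl libraries, with 0 lower and 4 higher of 7 tested, and cholangiocyte markers, mostly Spp1, to between 1665 and 2143 TPM in siPAK4 and between 1699 and 2411 TPM in siControl libraries. Lymphocyte markers summed to between 3.21 and 4.47 TPM in siPAK4 and between 4.17 and 7.05 TPM in siControl. Cholangiocyte and lymphocyte markers had 1 lower call each, and Schwann cell and neuron markers had 2. Beside these counts, 14.5% of all genes tested were called lower and 12.4% higher. Sox10 and Myocd, which define Schwann cells and smooth muscle, were at 0. The part of these cells in the results on guidance genes was not tested. Replicate 3 stood apart from the other siPAK4 libraries along the second principal component of expression, which held 13.4% of the variance, and results that change without it are given both ways. In this mixture fewer cells of a type and less RNA per cell cannot be told apart.

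Levels of the guidance genes differed widely, down to genes with no read, and were uneven within families. Robo4, a Robo receptor known from endothelial cells, had the highest level per length, with 166 ± 46.5 TPM in siPAK4 and 208 ± 13.8 TPM in siControl libraries (SD, n = 4 each, as for all values written with ±). It was followed by Plxnd1, the receptor of semaphorin 3E, with 161 ± 36.3 TPM in siPAK4 and 155 ± 15.4 TPM in siControl libraries, levels that overlap those of Robo4 in siPAK4 libraries. The semaphorin receptor subunit gene Plxna1 had 109 ± 12.2 TPM in siPAK4 and 126 ± 13.3 TPM in siControl libraries, and Plxnb2, a receptor of class 4 semaphorins, had 79.3 ± 4.74 TPM in siPAK4 and 96.4 ± 9.12 TPM in siControl libraries. Ntn4, a netrin of basement membranes, had 68.1 ± 17.2 TPM in siPAK4 and 94.4 ± 7.02 TPM in siControl libraries. Unc50, which is no guidance receptor, was also among the 6 highest, with 81.5 ± 4.12 TPM in siPAK4 and 72.6 ± 3.98 TPM in siControl libraries. In all, 22 members averaged at least 10 TPM over the 8 libraries, 20 lay between 1 and 10 TPM and 26 lay under 1 TPM. In several families the leading gene held most of the summed TPM: Ephb4 held 96.2% of the EphB level in siPAK4 and 92.0% in siControl libraries, Epha2 held 82.3% of the EphA level in siPAK4 and 87.2% in siControl, and Robo4 held 87.3% of the Robo level in siPAK4 and 90.9% in siControl. Efna1 likewise led the ephrin-A ligands, with 87.0% of their level in siPAK4 and 81.5% in siControl libraries. The plexins, the family with the highest summed TPM, were shared out among Plxnd1 (36.7% in siPAK4 and 32.4% in siControl libraries), Plxna1 (24.7% in siPAK4 and 26.3% in siControl) and Plxnb2 (18.0% in siPAK4 and 20.1% in siControl). The semaphorins were also spread, with Sema3f at 19.8% in siPAK4 and 19.4% in siControl libraries and Sema4d at 13.9% in siPAK4 and 20.4% in siControl libraries. Summed over all members the level was 1255 ± 192 TPM in siPAK4 and 1331 ± 94.3 TPM in siControl libraries, and the groups overlapped.

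**Figure D1:**
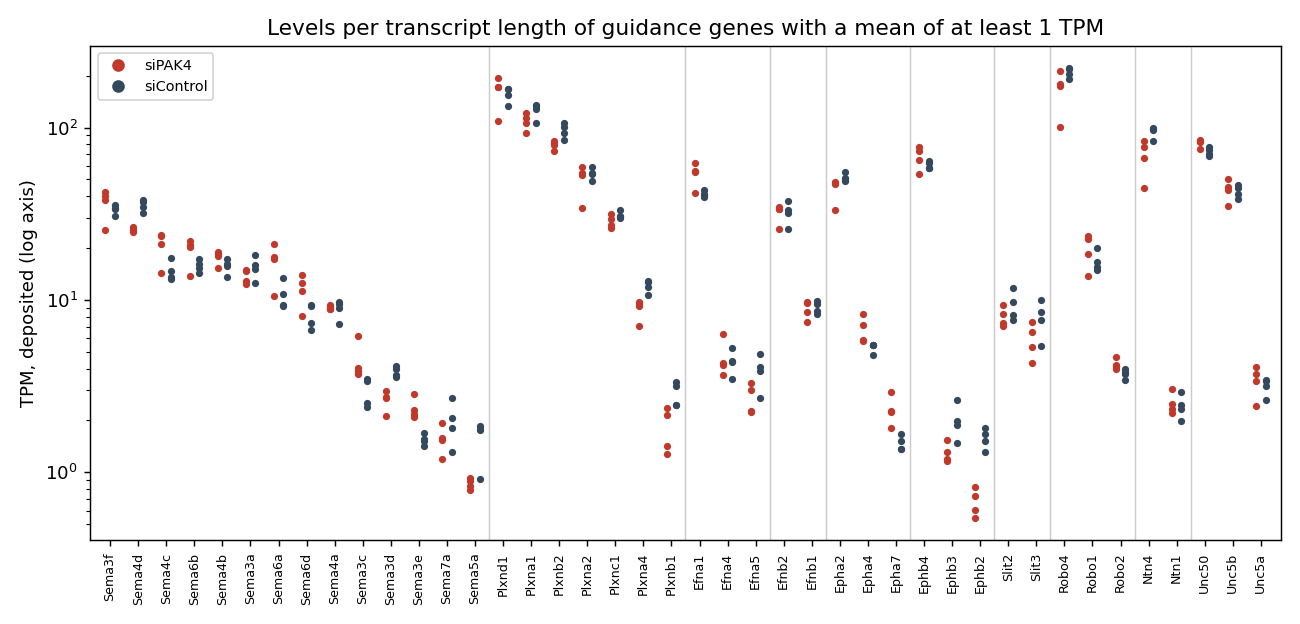
Deposited TPM (log axis) of the 42 guidance genes with a mean of at least 1 TPM, by family and in falling order within each, with a point for each of the 4 siPAK4 (left, red) and 4 siControl (right, dark) libraries. Robo4, Plxnd1 and Plxna1 stand at the top, and the lowest siPAK4 point of many of the abundant genes lies well below the other 3.

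Of the 68 genes, 60 had enough reads to be tested, and 26 differed between the groups by edgeR's quasi-likelihood test at an adjusted p under 0.05, where p was adjusted over all 17975 genes tested. The number lower with siPAK4 was 19 and the number higher was 7. Called genes made up 43.3% of the members tested, against 26.9% of all genes tested. Lower calls came to 31.7% of the members, against 14.5% of all genes, and higher calls to 11.7%, against 12.4% of all genes. The median log2 fold change of the members was −0.21, against 0.01 for all genes tested. It differed by level. The 22 members of at least 10 TPM had a median of −0.03, with 3 higher and 6 lower. The 20 between 1 and 10 TPM had a median of −0.04, with 4 higher and 6 lower. The 18 tested members under 1 TPM had a median of −0.55, with 0 higher and 7 lower. Whether all genes of the same levels differ in the same way was not tested. In 20 of the 60 the groups did not overlap, with 17 lower and 3 higher, or 33.3% beside 28.8% of all genes. Of the called genes 3 changed at least 2-fold, namely Ephb2, Epha1 and Unc5d, or 5.0% of the members tested beside 4.62% of all genes, and sizes of the called log2 fold changes ran from 0.25 to 1.25. Scaling by library totals alone gave 12 higher and 15 lower members, so that 44.4% of the calls were higher, against 26.9% by TMM. Among the calls over all genes, 67.6% were higher with library totals, against 46.1% by TMM. Leaving out siPAK4 replicate 3 gave 11 higher and 19 lower, and leaving out siControl replicate 2 gave 6 higher and 12 lower. The share of all genes called moved as well, to 30.2% without siPAK4 replicate 3 and 19.7% without siControl replicate 2, against 26.9% with all libraries. On log2(TPM + 1) values with limma 4 genes were higher and 11 lower, where 21.4% of all genes were called. Lost there were the calls of Ephb3 (adjusted p = 0.0524), Sema3g (0.0693), Sema4c (0.0573) and Unc5d (0.173), which held without any 1 library, and those of Efna5 (0.0942), Epha2 (0.156), Ephb1 (0.0814), Plxna1 (0.156), Sema3c (0.0546), Sema4g (0.122) and Sema6d (0.0704). Without Unc50 and Unc5cl the counts stayed at 7 higher and 19 lower of 59 tested. The remaining 8 members were not tested, with at most 10 reads in any library: Epha5, Epha6, Epha8, Epha10, Ntn5, Sema4f, Sema5b and Unc5cl, of which Epha6 and Sema5b had no read.

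**Figure D2:**
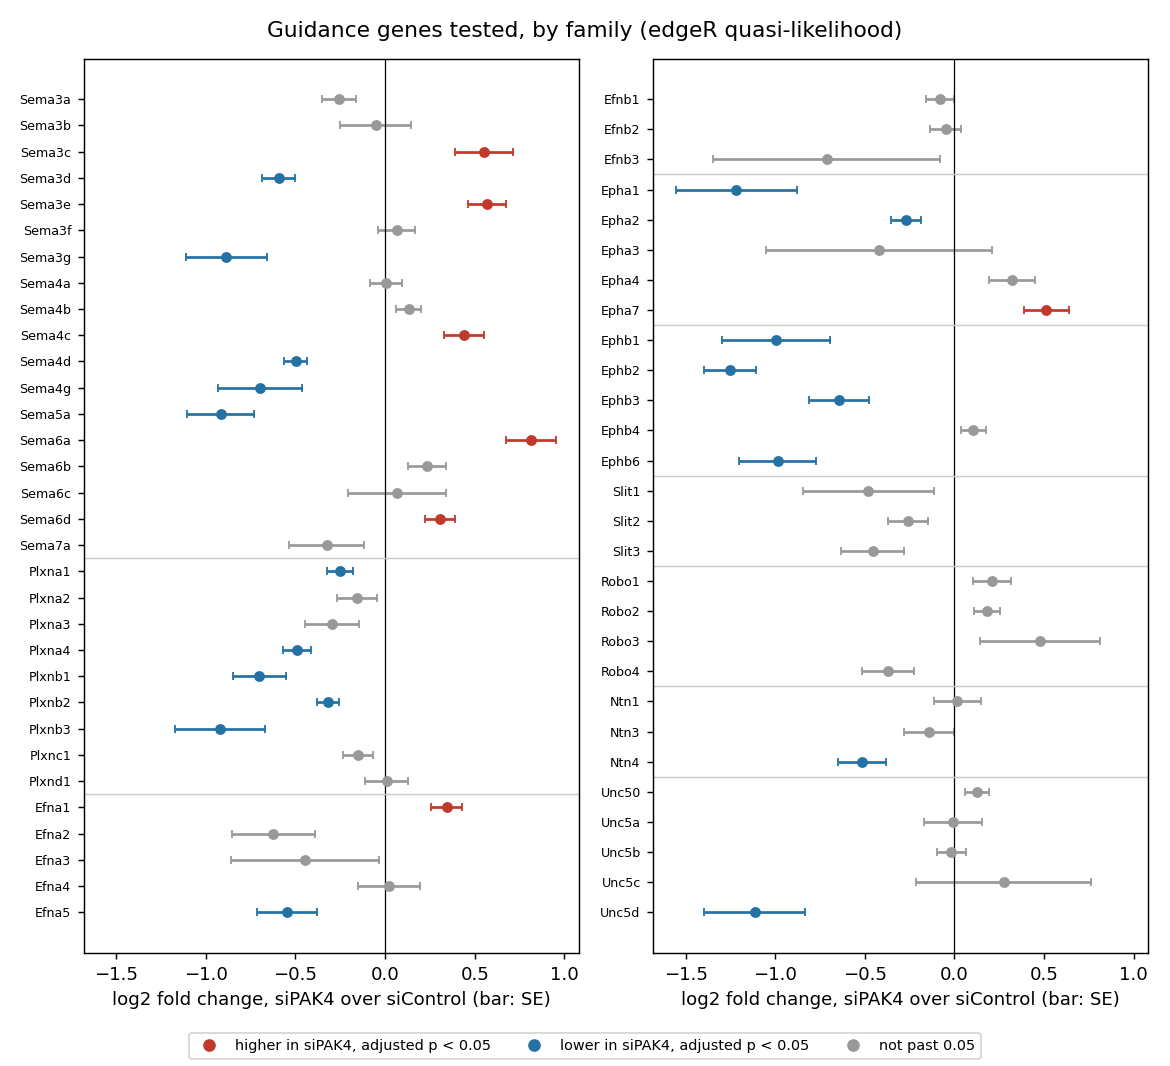
Log2 fold change of siPAK4 over siControl with its standard error for the 60 guidance genes tested, with families parted by grey lines: semaphorins, plexins and ephrin-A ligands on the left, and ephrin-B ligands, EphA and EphB receptors, Slits, Robos, netrins and UNC5 genes on the right. Red marks the 7 genes called higher, blue the 19 called lower and grey the 34 past no threshold. No plexin, ephrin-B, EphB, Slit, Robo, netrin or UNC5 gene is red.

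Semaphorins, the largest ligand family, went both ways, with 5 lower, 5 higher and 8 not past the test among 18 tested. Their median log2 fold change was 0.03. Lower and higher calls each came to 27.8%. Beside them, and beside the class counts that follow, stand 14.5% lower and 12.4% higher among all genes. The calls also split within class 3, the secreted semaphorins that mostly signal through neuropilins, where 2 genes were lower and 2 higher of 7.

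Sema3d (chromosome 5, 12383161 to 12588953), a class 3 ligand, had 8.36, 7.57, 6.85 and 8.42 CPM in siPAK4 replicates 1 to 4, against 11.9, 11.1, 12.8 and 11.3 CPM in siControl replicates 1 to 4. Sema3e (chromosome 5, 14025276 to 14256689), which binds plexin D1 directly, went the other way with 6.48, 8.45, 7.79 and 6.78 CPM in siPAK4 replicates 1 to 4, against 5.27, 4.86, 5.01 and 4.74 CPM in siControl replicates 1 to 4. Neither gene's groups overlapped, and Sema3d fell by 0.59 on the log2 scale (SE 0.0921, adjusted p = 0.000651) while Sema3e rose (log2 fold change 0.57, SE 0.107, adjusted p = 0.00236). Sema3a, the founding repulsive semaphorin, lies between them on the chromosome and had 34.6, 41.9, 39.3 and 42.6 CPM in siPAK4 replicates 1 to 4, against 53.9, 45.3, 50.0 and 40.1 CPM in siControl replicates 1 to 4. Its groups overlapped and the difference missed the threshold (log2 fold change −0.26, SE 0.0948, adjusted p = 0.0656), but passed without siControl replicate 4 (adjusted p = 0.0216) and by DESeq2 (adjusted p = 0.0455). Sema3c, an attractant of vascular and cardiac development, had 7.98, 13.1, 9.83 and 9.08 CPM in siPAK4 replicates 1 to 4, against 7.66, 5.88, 8.03 and 5.73 CPM in siControl replicates 1 to 4. It was called higher (log2 fold change 0.55, SE 0.162, adjusted p = 0.0259), although the groups overlapped and the call was lost without siPAK4 replicate 2, siControl replicate 2 or siControl replicate 4 (adjusted p from 0.0715 to 0.0820). Sema3g, a class 3 semaphorin known from endothelium, had 1.43, 1.28, 0.998 and 1.28 CPM in siPAK4 replicates 1 to 4, against 2.02, 3.47, 1.99 and 1.75 CPM in siControl replicates 1 to 4, with no overlap and a fall of 0.89 on the log2 scale (SE 0.226, adjusted p = 0.013). Sema3f, the semaphorin with the highest TPM averaged over the 8 libraries, did not pass (61.5 ± 9.70 CPM in siPAK4 and 58.9 ± 2.72 CPM in siControl libraries, log2 fold change 0.06, SE 0.101, adjusted p = 0.691), but was past the threshold without siPAK4 replicate 3 (log2 fold change 0.17, adjusted p = 0.0451).

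Among the membrane-bound class 4 semaphorins, 2 were lower and 1 higher of 5 tested. Sema4d (chromosome 13, 51685529 to 51793678), a ligand of plexin B1 and plexin B2 that is also bound by the lymphocyte and myeloid receptor CD72, had 51.8, 48.3, 56.6 and 54.4 CPM in siPAK4 replicates 1 to 4, against 76.6, 79.4, 72.8 and 69.4 CPM in siControl replicates 1 to 4. Every siPAK4 library lay below every siControl library, and Sema4d had the second smallest p among the members (log2 fold change −0.50, SE 0.0653, adjusted p = 0.000208). Sema4c, another plexin B2 ligand, was higher with siPAK4, with 42.4, 40.3, 29.7 and 40.4 CPM in siPAK4 replicates 1 to 4, against 30.3, 30.5, 24.9 and 26.8 CPM in siControl replicates 1 to 4. The siPAK4 value of replicate 3 lay inside the siControl range, and the difference passed (log2 fold change 0.44, SE 0.11, adjusted p = 0.0118). Sema4g was low and fell by 0.70 on the log2 scale in a call that depended on 6 of the 8 libraries (SE 0.235, adjusted p = 0.0453, and between 0.0568 and 0.133 without any of the 4 siPAK4 libraries or without siControl replicates 2 or 4). Sema4a, another ligand of B-type plexins, did not pass (adjusted p = 0.976).

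The class 6 semaphorins, transmembrane ligands of A-type plexins, had 2 genes higher and 0 lower of 4. Sema6a (chromosome 18, 47245254 to 47371200) had the largest fold change among the members called higher, with 126, 115, 77.7 and 109 CPM in siPAK4 replicates 1 to 4, against 73.8, 55.1, 57.8 and 56.8 CPM in siControl replicates 1 to 4. The groups did not overlap, and the level was 1.76 times that in siControl libraries (log2 fold change 0.82, SE 0.138, adjusted p = 0.00129). Sema6d, a ligand of plexin A1, had 32.9, 35.4, 29.6 and 39.6 CPM in siPAK4 replicates 1 to 4, against 28.3, 28.0, 28.5 and 26.5 CPM in siControl replicates 1 to 4. It rose by less (log2 fold change 0.31, SE 0.0832, adjusted p = 0.0176), and the call narrowly failed without siPAK4 replicate 2, siPAK4 replicate 4 or siControl replicate 4 (adjusted p from 0.0505 to 0.0537). Sema6b did not pass (log2 fold change 0.23, adjusted p = 0.132), but was called higher without siPAK4 replicate 3 (log2 fold change 0.34, adjusted p = 0.00312) or with library totals (adjusted p = 0.0446). Sema5a, whose protein carries thrombospondin repeats, had 3.89, 4.05, 4.19 and 4.72 CPM in siPAK4 replicates 1 to 4, against 9.16, 8.88, 9.03 and 4.78 CPM in siControl replicates 1 to 4. The siControl values of replicates 1 to 3 stood together and that of replicate 4 was close to the siPAK4 level, but the groups did not overlap and Sema5a fell (log2 fold change −0.92, SE 0.184, adjusted p = 0.00359).

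**Figure D3:**
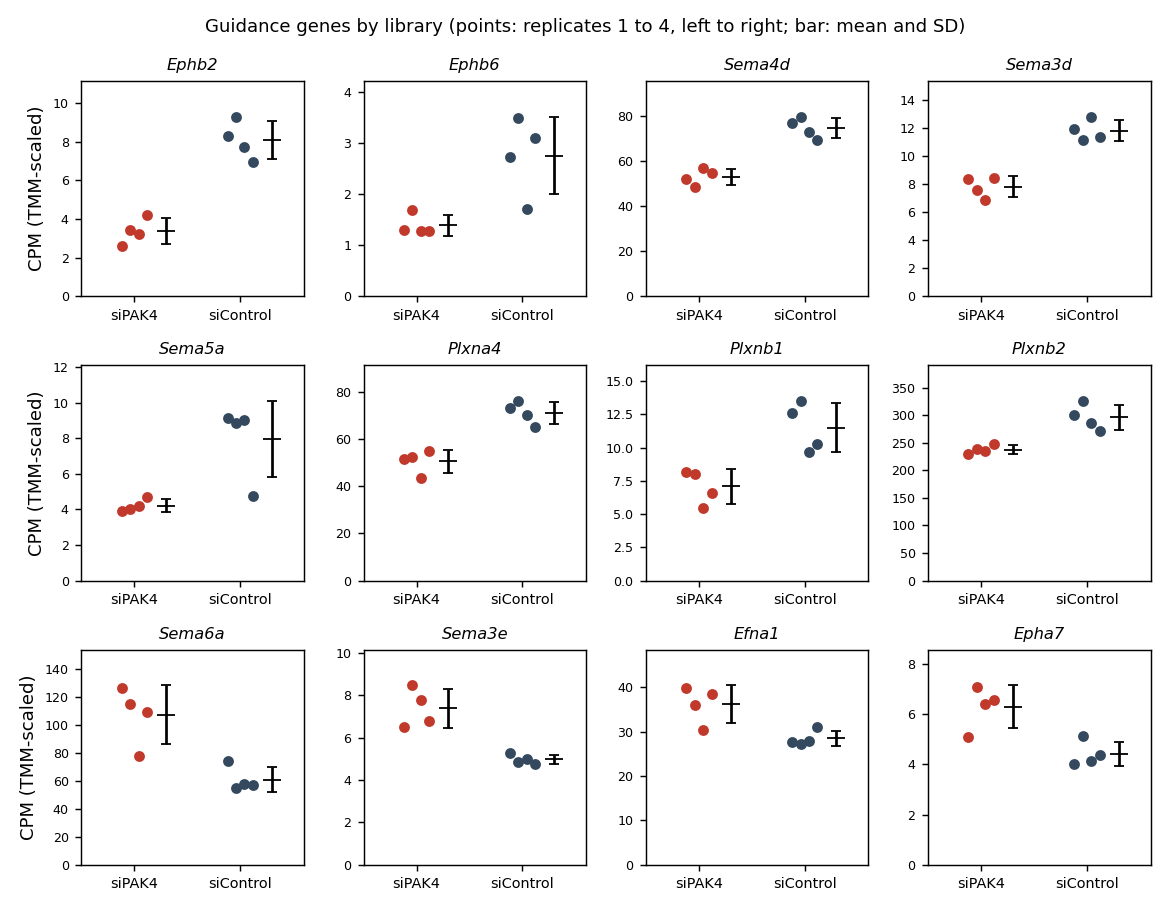
TMM-scaled CPM of 12 guidance genes in each library, with siPAK4 left of siControl, replicates 1 to 4 from left to right within each group, and the mean and SD beside the points on axes that start at 0. The first 8 panels show genes that were lower with siPAK4, among them Sema5a with siControl replicate 4 at 4.78 CPM, and the last 4 show genes that were higher.

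Plexin transcripts fell or did not pass, with 5 lower, 0 higher and 4 not past the test of 9. Their median log2 fold change was −0.30. Lower calls came to 55.6% of the plexins, beside 14.5% of all genes. All 3 B-type plexin genes were among those lower. Plxnb1 (chromosome 9, 109093849 to 109119915), the receptor of semaphorin 4D, had 8.17, 8.05, 5.47 and 6.61 CPM in siPAK4 replicates 1 to 4, against 12.6, 13.5, 9.64 and 10.3 CPM in siControl replicates 1 to 4, with no overlap (log2 fold change −0.70, SE 0.146, adjusted p = 0.00443). Plxnb2 (chromosome 15, 89155546 to 89182018), far more abundant, had 229, 239, 234 and 248 CPM in siPAK4 replicates 1 to 4, against 301, 325, 286 and 272 CPM in siControl replicates 1 to 4. The siPAK4 values were tightly grouped and all lower (log2 fold change −0.32, SE 0.0625, adjusted p = 0.00307). Plxnb3 had 0.691, 0.510, 0.649 and 0.443 CPM in siPAK4 replicates 1 to 4, against 0.704, 1.39, 1.15 and 1.10 CPM in siControl replicates 1 to 4. Those groups were barely parted, and the call (log2 fold change −0.92, SE 0.252, adjusted p = 0.0185) was lost without siPAK4 replicate 2 (adjusted p = 0.0545) or siControl replicate 2 (adjusted p = 0.0645).

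Of the A-type plexins, which form receptors with neuropilins for class 3 semaphorins and bind class 6 semaphorins directly, Plxna4 and Plxna1 fell. Plxna4 (chromosome 6, 32144543 to 32588192) had 51.6, 52.4, 43.5 and 54.8 CPM in siPAK4 replicates 1 to 4, against 73.3, 76.1, 70.1 and 65.0 CPM in siControl replicates 1 to 4, without overlap (log2 fold change −0.49, SE 0.0778, adjusted p = 0.000744). Plxna1 had 474, 442, 410.0 and 455 CPM in siPAK4 replicates 1 to 4, against 553, 565, 539 and 464 CPM in siControl replicates 1 to 4. Here siControl replicate 4 overlapped the siPAK4 values, and the small difference (log2 fold change −0.25, SE 0.0729, adjusted p = 0.0237) did not pass without siPAK4 replicate 2 or siControl replicates 1, 2 or 3 (adjusted p from 0.0622 to 0.0761), nor with library totals (adjusted p = 0.112). Plxna2, a receptor gene of semaphorin 6A, was not called (log2 fold change −0.16, SE 0.113, adjusted p = 0.337). It had 282, 258, 186 and 277 CPM in siPAK4 replicates 1 to 4, against 299.6, 283, 278 and 261 CPM in siControl replicates 1 to 4. Plxnd1 had 584, 512, 375 and 562 CPM in siPAK4 replicates 1 to 4, against 529, 539, 501 and 449.9 CPM in siControl replicates 1 to 4, with wide overlap (log2 fold change 0.01, SE 0.120, adjusted p = 0.964). Plxnc1, a semaphorin 7A receptor, did not pass (log2 fold change −0.15, SE 0.0840, adjusted p = 0.217) with all libraries, but did so without siPAK4 replicate 3 (log2 fold change −0.24, adjusted p = 0.00748). Ligands and their receptor genes did not always go the same way: Sema4d, Plxnb1 and Plxnb2 were all lower, while Sema4c was higher and its receptor gene Plxnb2 lower, and Sema6d was higher and its receptor gene Plxna1 lower. Sema6a and Sema3e were higher, while Plxna2 and Plxnd1, a receptor gene of each in turn, were past no threshold. Plxna4, of the A type that binds class 6 semaphorins, was lower.

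EphB receptors, the receptors of the transmembrane ephrin-B ligands, had the largest share of falls, with 4 lower, 0 higher and 1 not past the test. Their median log2 fold change was −0.99. Lower calls came to 80.0% of them, beside 14.5% of all genes. The summed EphB level, mostly that of the uncalled Ephb4, was 70.0 ± 10.6 TPM in siPAK4 and 65.8 ± 3.36 TPM in siControl libraries. Ephb2 (chromosome 4, 136647536 to 136836326), a tyrosine kinase receptor of ephrin-B ligands, had the smallest p and the largest fold change among the members tested, with 2.61, 3.45, 3.24 and 4.22 CPM in siPAK4 replicates 1 to 4, against 8.31, 9.27, 7.74 and 6.93 CPM in siControl replicates 1 to 4. The highest siPAK4 value was well below the lowest siControl value, and the mean was 2.38-fold lower (log2 fold change −1.25, SE 0.147, adjusted p = 9.64e-05). Ephb3, a kinase of the same group, had 2.14, 2.76, 2.68 and 2.32 CPM in siPAK4 replicates 1 to 4, against 3.77, 5.09, 3.63 and 2.99 CPM in siControl replicates 1 to 4, again without overlap (log2 fold change −0.65, SE 0.169, adjusted p = 0.0146). Ephb6, whose kinase domain is inactive, had 1.30, 1.70, 1.28 and 1.28 CPM in siPAK4 replicates 1 to 4, against 2.73, 3.48, 1.71 and 3.09 CPM in siControl replicates 1 to 4. The groups nearly touched but did not overlap (log2 fold change −0.99, SE 0.214, adjusted p = 0.00551). Ephb1 was weakly expressed, with 0.415, 0.221, 0.316 and 0.273 CPM in siPAK4 replicates 1 to 4, against 0.397, 0.679, 0.628 and 0.743 CPM in siControl replicates 1 to 4. The siPAK4 value of replicate 1 lay inside the siControl range, and its call (SE 0.303, adjusted p = 0.03) was lost without siPAK4 replicates 2 or 4 or siControl replicates 2, 3 or 4 (adjusted p from 0.0668 to 0.0891). The abundant EphB receptor, Ephb4, which pairs with ephrin-B2 across the border of arteries and veins, did not follow the others. It had 145, 136, 114 and 133 CPM in siPAK4 replicates 1 to 4, against 126, 125, 118 and 122 CPM in siControl replicates 1 to 4, with overlap (log2 fold change 0.10, SE 0.0703, adjusted p = 0.307), and without siPAK4 replicate 3 it passed as higher (log2 fold change 0.17, adjusted p = 0.0193).

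No ephrin-B ligand gene passed, with 0 of 3 called, beside 26.9% of all genes, a number of genes too small to set against that share. Efnb2, the main ephrin-B here, had 82.0, 84.4, 71.6 and 89.5 CPM in siPAK4 replicates 1 to 4, against 95.5, 87.7, 82.1 and 73.7 CPM in siControl replicates 1 to 4. Those ranges overlapped almost fully (log2 fold change −0.05, SE 0.0863, adjusted p = 0.72). Efnb1 likewise did not pass (13.5 ± 0.849 CPM in siPAK4 and 14.2 ± 0.894 CPM in siControl libraries, adjusted p = 0.506), nor did the weakly expressed Efnb3 (log2 fold change −0.71, SE 0.634, adjusted p = 0.452).

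Of the 5 ephrin-A ligand genes tested 1 was higher, 1 lower and 3 not past the test. Of the 5 EphA receptor genes tested 1 was higher, 2 lower and 2 not past the test. Called genes made up 40.0% of these ligands and 60.0% of these receptors, beside 26.9% of all genes. Efna1 (chromosome 3, 89271730 to 89280951), a GPI-anchored ligand of EphA2, had 40.0, 35.9, 30.4 and 38.6 CPM in siPAK4 replicates 1 to 4, against 27.8, 27.3, 28.0 and 31.1 CPM in siControl replicates 1 to 4. It rose (log2 fold change 0.34, SE 0.0861, adjusted p = 0.012), with siPAK4 replicate 3 inside the siControl range. Its receptor gene Epha2 (chromosome 4, 141301221 to 141329384) was lower, with 79.5, 81.8, 64.4 and 88.3 CPM in siPAK4 replicates 1 to 4, against 91.2, 102, 92.2 and 93.6 CPM in siControl replicates 1 to 4. The groups did not overlap, but the call was narrow (log2 fold change −0.27, SE 0.0858, adjusted p = 0.0357). It was lost without siPAK4 replicates 1 or 2 or any of the 4 siControl libraries (adjusted p from 0.0551 to 0.107), and with library totals (adjusted p = 0.146). Efna5, a ligand of several EphA receptors, had 5.10, 7.47, 5.86 and 7.51 CPM in siPAK4 replicates 1 to 4, against 9.83, 11.8, 9.33 and 6.88 CPM in siControl replicates 1 to 4. It was called lower (log2 fold change −0.55, SE 0.169, adjusted p = 0.0326) with overlap, a call lost without siPAK4 replicates 1 or 3 or siControl replicates 1, 2 or 3 (adjusted p from 0.0633 to 0.107). Epha7, an EphA receptor of ephrin-A5, was higher, with 5.10, 7.09, 6.39 and 6.58 CPM in siPAK4 replicates 1 to 4, against 4.03, 5.11, 4.14 and 4.35 CPM in siControl replicates 1 to 4. The lowest siPAK4 value lay just under the highest siControl value (log2 fold change 0.51, SE 0.126, adjusted p = 0.0108). Epha1 had 0.432, 0.255, 0.366 and 0.767 CPM in siPAK4 replicates 1 to 4, against 1.32, 1.21, 1.07 and 0.637 CPM in siControl replicates 1 to 4. Replicate 4 of each group lay inside the range of the other, and Epha1 was called lower (log2 fold change −1.22, SE 0.338, adjusted p = 0.0196), but not without siPAK4 replicate 2 or siControl replicates 1 or 2 (adjusted p from 0.0565 to 0.0592). Its exons share 236 bases with those of Zyx on the other strand in the GENCODE M21 annotation of the same build. Zyx, which encodes the focal adhesion protein zyxin, averaged 79.3 CPM and fell by 0.44 on the log2 scale (adjusted p = 0.00374). The kit kept the strand, but the strand setting of the counting is not given in the sources used here, so the share of Epha1 reads that belong to Zyx was not tested. Epha4, another receptor of ephrin-A5, did not pass (log2 fold change 0.32, adjusted p = 0.0844), but was called higher without siPAK4 replicate 1 (adjusted p = 0.0285) or with library totals (adjusted p = 0.0265).

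Slit and Robo genes had no call in 7 tested members, although the unadjusted p was under 0.05 for 4 of them, against 38.0% of all genes. Robo4 had 347, 285, 188 and 317 CPM in siPAK4 replicates 1 to 4, against 379.7, 382, 359 and 348 CPM in siControl replicates 1 to 4. Each siPAK4 value was below each siControl value, replicate 1 by less than 1 CPM, and the spread among the siPAK4 libraries was wide (log2 fold change −0.37, SE 0.146, adjusted p = 0.0853). Without siPAK4 replicate 3 or siPAK4 replicate 1 it passed as lower (adjusted p = 0.0222 without replicate 3, and 0.0337 without replicate 1), as it did by DESeq2 (adjusted p = 0.0421). Robo1, the broadly expressed Slit receptor, had 94.9, 75.7, 62.8 and 81.5 CPM in siPAK4 replicates 1 to 4, against 76.0, 65.1, 66.9 and 64.4 CPM in siControl replicates 1 to 4, with overlap (log2 fold change 0.21, SE 0.107, adjusted p = 0.177), and passed as higher without siPAK4 replicate 3 (log2 fold change 0.30, adjusted p = 0.0105). Robo2 did not pass (log2 fold change 0.18, SE 0.0726, adjusted p = 0.0898), but was called higher with library totals (adjusted p = 0.0160). Among the ligands, Slit2 had 37.3 ± 2.67 CPM in siPAK4 and 44.6 ± 8.08 CPM in siControl libraries (log2 fold change −0.26, SE 0.111, adjusted p = 0.109), and Slit3 had 13.3 ± 2.73 CPM in siPAK4 and 18.3 ± 4.19 CPM in siControl libraries (log2 fold change −0.46, SE 0.175, adjusted p = 0.0761), which passed only without siControl replicate 4 (adjusted p = 0.0179) or by DESeq2 (adjusted p = 0.0356) among the alternatives tried.

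Netrin and UNC5 genes had 1 call each, or 33.3% of the netrins and 20.0% of the UNC5 genes tested, beside 26.9% of all genes. Ntn4 (chromosome 10, 93641049 to 93745972) had 87.5, 69.4, 52.7 and 87.6 CPM in siPAK4 replicates 1 to 4, against 109, 110.0, 108 and 97.9 CPM in siControl replicates 1 to 4. It fell without overlap (log2 fold change −0.52, SE 0.134, adjusted p = 0.0148), with replicate 3 the lowest siPAK4 library. Ntn1, the classical netrin, had almost equal means (log2 fold change 0.02, SE 0.132, adjusted p = 0.948). Unc5b, a netrin receptor of endothelial tip cells, had 110.4, 127, 100.2 and 125 CPM in siPAK4 replicates 1 to 4, against 119, 128, 112 and 109 CPM in siControl replicates 1 to 4, with no sign of separation (log2 fold change −0.02, SE 0.0812, adjusted p = 0.91). Unc5d was barely expressed, with 0.277, 0.238, 0.250 and 0.375 CPM in siPAK4 replicates 1 to 4, against 0.740, 0.715, 0.526 and 0.495 CPM in siControl replicates 1 to 4. These groups did not overlap and Unc5d was called lower (log2 fold change −1.11, SE 0.281, adjusted p = 0.0123). Unc50 had 41.2, 42.4, 47.8 and 42.1 CPM in siPAK4 replicates 1 to 4, against 38.5, 41.8, 36.8 and 42.1 CPM in siControl replicates 1 to 4, and did not pass (log2 fold change 0.13, SE 0.0689, adjusted p = 0.209) except with library totals (adjusted p = 0.0358).

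The other genes of these pathways, 66 coreceptors, adaptors and GTPase regulators, moved at a similar balance, with 17 lower, 7 higher and 39 not past the test of 63 tested. Called genes made up 38.1% of them, against 26.9% of all genes, with 27.0% lower, against 14.5%, and 11.1% higher, against 12.4%, and their median log2 fold change was −0.08. The largest rise was that of Flrt3, which encodes a leucine-rich membrane protein that binds UNC5 receptors and latrophilins, with 21.7, 23.0, 22.6 and 22.2 CPM in siPAK4 replicates 1 to 4, against 9.55, 5.65, 9.69 and 10.5 CPM in siControl replicates 1 to 4. The groups were far apart (log2 fold change 1.34, SE 0.151, adjusted p = 8.15e-05). Rises were also called for Ntng2 (log2 fold change 0.92), a netrin-G, and Gpc1 (0.33), a glypican that binds Slit, both with an adjusted p of 0.00562. The calls for the adaptor gene Nck1 (log2 fold change 0.20) and the ephexin gene Ngef (0.70) were lost without siPAK4 replicate 2 or siControl replicate 2, among other libraries (adjusted p from 0.0581 to 0.0822 for Nck1 and from 0.0527 to 0.130 for Ngef).

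The neuropilin coreceptors of class 3 semaphorins parted. Nrp1 had 397, 375, 411 and 409.6 CPM in siPAK4 replicates 1 to 4, against 455, 449, 486 and 461 CPM in siControl replicates 1 to 4, without overlap (log2 fold change −0.22, SE 0.0547, adjusted p = 0.0122), and missed the threshold without siPAK4 replicate 2 (adjusted p = 0.0510) or with library totals (adjusted p = 0.0656). Nrp2 had 983, 932, 744 and 933 CPM in siPAK4 replicates 1 to 4, against 779.9, 707, 725 and 695 CPM in siControl replicates 1 to 4. It was called higher (log2 fold change 0.31, SE 0.0845, adjusted p = 0.0193), but not without siPAK4 replicates 1, 2 or 4 or siControl replicates 2, 3 or 4 (adjusted p from 0.0521 to 0.0610), nor on log2(TPM + 1) values (adjusted p = 0.0643). Neo1, which encodes the netrin receptor neogenin, fell by 0.32 on the log2 scale (adjusted p = 0.00537), a call lost on log2(TPM + 1) values (adjusted p = 0.0546), and Dcc, the other DCC-family receptor gene, had no read. Downstream of plexins, Mical1 (log2 fold change −0.45, adjusted p = 0.00016) and Mical2 (−0.55, adjusted p = 0.000352), which encode actin-oxidizing enzymes, fell. So did Dpysl2, which encodes the semaphorin mediator CRMP2 (−0.51, adjusted p = 0.00101). L1cam, a cell adhesion gene (−0.69, adjusted p = 0.00045), and Cd72 (−1.0, adjusted p = 0.000795) fell too. Cd72 was measured in libraries in which 9 of 15 tested macrophage markers were lower, and their part in its fall was not tested. Of the calls in this list, 7 higher became 3 without siPAK4 replicate 2, siControl replicate 2 or siControl replicate 4, and 4 without siPAK4 replicate 4 or siControl replicate 3, while the lower calls stayed between 15 and 19 without any 1 library.

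Libraries within a group were not alike in these genes. Replicate 3 had the lowest of the 4 siPAK4 values in 30 of the 60 tested members (50.0%), against 33.4% of all genes tested, and it held the lowest sum over all members, with 978 TPM against 1294 to 1417 TPM in the other 3 siPAK4 libraries. The endothelial marker sum was lowest in the same library, at 3073 TPM, against 4235 to 4748 TPM in the other 3. Robo4 followed, at 188 CPM in that library and 285 to 347 CPM in the others, as did Plxnd1, at 375 CPM against 512 to 584 CPM. Ephb4, Robo1, Plxna2, Ntn4 and Sema6a were also lowest there. Replicate 3 held the highest siPAK4 value in 5 members (8.33%, against 34.6% of all genes tested), namely Epha4, Plxnc1, Sema4a, Sema4d and Unc50. The macrophage marker sum was highest there, at 14969 TPM against 10382 to 10939 TPM in the other 3. So was the cholangiocyte marker sum, at 2143 TPM against 1665 to 1759 TPM. Whether the shares of endothelial or other cells account for these values was not tested. On the siControl side, replicate 4 had the lowest value in 35 of the 60 members (58.3%), against 28.2% of all genes tested.

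**Figure D4:**
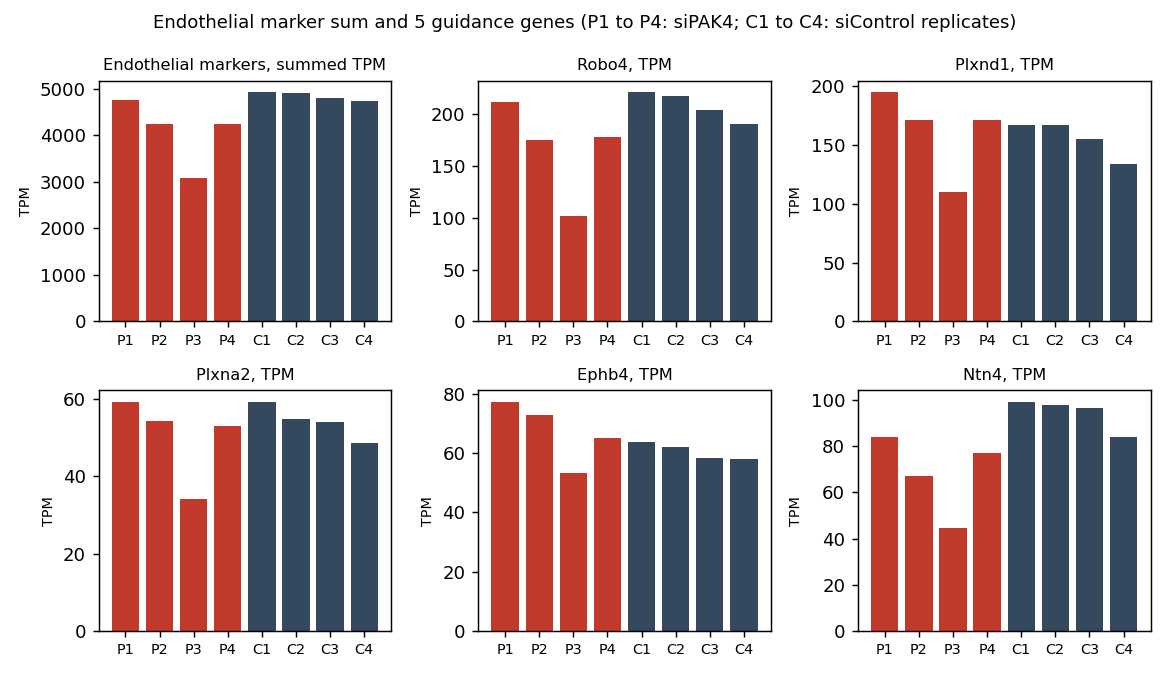
Summed TPM of 17 endothelial markers and TPM of Robo4, Plxnd1, Plxna2, Ephb4 and Ntn4 in each library, with siPAK4 replicates (P1 to P4, red) left of siControl replicates (C1 to C4, dark) and all axes starting at 0. siPAK4 replicate 3 is the lowest bar in every panel, including the marker sum at 3073 TPM.

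Members that neighbour each other on a chromosome did not always share a call. Sema3d and Sema3a lie 536 kb apart and Sema3a and Sema3e 422 kb apart, in a cluster with a lower, an uncalled and a higher gene. Efna1, Efna3 and Efna4 stand within gaps of 32.9 and 10.5 kb, and of these only Efna1 was called. Ephb6 and Epha1, 738 kb apart on chromosome 6, were both lower. Promoter windows of 250 bases before the RefSeq start sites (GRCm38.p6, also called mm10) were used for 59 members, some with several starts. They were searched on both strands for GGAATG, the core bound by TEAD factors, TGANTCA, bound by AP-1, the interferon-stimulated response element, written as GAAA repeated after any 2 bases, and the CArG box bound by SRF. The TEAD core stood in 10.7% of the 75 member windows, against 12.6% of all 32851 windows. It stood in 15.8% of the 19 windows of genes called lower and in 0 of the 10 windows of genes called higher. Those windows came from 16 of the 19 genes called lower and 6 of the 7 called higher. Sema6a, the member with the largest rise, was not among the genes searched, so the windows of genes called higher leave it out. AP-1 letters were in 4.00% of the member windows, against 6.75% of all, the interferon element in 2.67%, against 2.98%, and the CArG box in 2.67%, against 1.47%. With 0 to 3 windows per motif among the genes called lower, these shares are descriptions only.

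The windows of 4 called genes are shown, with motif letters in capitals: Epha2 as the member with a pair of TEAD cores, Sema4d as the member with an AP-1 motif and a CArG box side by side, and Sema3d and Sema3e as chromosome neighbours with opposite calls and none of the 4 motifs. The Epha2 window (chr4:141300971-141301220, plus strand) ends at the base before the start, and its TEAD cores begin 243 and 56 bases before it. The Sema4d stretch (chr13:51748931-51749060, minus strand) covers bases 250 to 121 before the second of the 3 starts used for it. All 3 lie inside the gene span given above. The AP-1 motif runs from base 239 and the CArG box from base 231. Sema3d (chr5:12382916-12383160, plus strand) is shown up to 6 bases before its start and Sema3e (chr5:14025026-14025275, plus strand) up to the start.
Epha2: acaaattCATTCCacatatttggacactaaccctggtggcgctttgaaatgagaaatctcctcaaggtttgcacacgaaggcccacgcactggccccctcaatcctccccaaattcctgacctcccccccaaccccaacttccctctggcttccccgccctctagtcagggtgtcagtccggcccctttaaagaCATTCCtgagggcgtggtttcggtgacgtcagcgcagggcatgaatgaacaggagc
Sema4d: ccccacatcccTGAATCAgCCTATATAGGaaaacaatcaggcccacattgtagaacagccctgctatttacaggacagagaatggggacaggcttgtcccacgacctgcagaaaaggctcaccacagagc
Sema3d: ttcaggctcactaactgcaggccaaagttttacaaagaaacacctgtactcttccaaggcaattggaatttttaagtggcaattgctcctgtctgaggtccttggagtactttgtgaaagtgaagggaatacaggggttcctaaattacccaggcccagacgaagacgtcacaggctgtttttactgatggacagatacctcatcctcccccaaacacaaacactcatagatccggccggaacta
Sema3e: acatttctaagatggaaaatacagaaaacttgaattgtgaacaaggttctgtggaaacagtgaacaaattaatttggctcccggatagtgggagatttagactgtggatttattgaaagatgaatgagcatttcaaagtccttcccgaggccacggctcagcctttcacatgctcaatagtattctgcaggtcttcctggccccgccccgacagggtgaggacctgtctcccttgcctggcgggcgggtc
Sema4d, with both motifs near that start, was lower, and so was Sema3d without any of them. G and C made up 55.6% of the Epha2 window and 46.1% and 48.0% of the Sema3d and Sema3e windows.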

How the data were processed

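RNA of primary mouse hepatic stellate cells was extracted with Trizol and made into libraries with a TruSeq Stranded mRNA kit, per the labels' protocols. The authors deposited whole-number read counts, FPKM and TPM per gene in the same table, and the FPKM values were not used here. The submitters' processing notes name the aligners HISAT2 2.1.0 and Bowtie2 2.3.4.1, StringTie 2.1.3b, FastQC 0.11.7, bcl2fastq 2.20.0 and the mm10 build. How reads were counted, on which strand and with what treatment of multi-mapping reads is not given in the sources used here, so reads of overlapping genes cannot be told apart.

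The counts as deposited were tested in R 4.3.3 with edgeR 4.0.16 (filterByExpr with a minimum count of 10, TMM scaling, robust quasi-likelihood fit), siPAK4 over siControl, with Benjamini-Hochberg adjustment over 17975 genes and a threshold of 0.05. Alternatives were other scalings and count filters, DESeq2 1.42.0, limma 3.58.1 on counts and on log2(TPM + 1) or log2(TPM + 0.1), a replicate block, and each library left out. The procedure was tested on simulated data. Promoters came from RefSeq.

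Library values are given for the 24 called members with the smallest p and the 6 with the highest TPM, and for binding partners of called members. Partner genes were the 6 with the smallest adjusted p in each direction, with Nrp1, Nrp2 and Neo1. Some items of these lists are not reported here. Ephb4, Plxnc1, Robo1, Robo2, Sema6b, Slit2, Slit3 and Dcc were chosen after their values were seen. The members and lists were chosen with earlier results of these data known.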

Additional observations from a re-analysis of the deposited data

Results flagged for a closer look

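In 11 of 112 groups of 4 libraries examined, 1 library lay far from the other 3 by Dixon's criterion, which chance alone meets in about 1 group in 20. Among the siPAK4 libraries, replicate 2 was highest for Ephb6 at 1.70 CPM (nearest other 1.30 CPM), replicate 3 was lowest for Sema4c at 29.7 CPM (nearest other 40.3 CPM), and replicate 4 was highest for Sema4g at 0.596 CPM (nearest other 0.510 CPM). Among the siControl libraries, replicate 4 was lowest for Dpysl2 at 158.7 CPM, for Gpc1 at 24.2 CPM, for Ntn4 at 97.9 CPM and for Sema5a at 4.78 CPM. The nearest other siControl values were 183 CPM for Dpysl2, 26.5 CPM for Gpc1, 108 CPM for Ntn4 and 8.88 CPM for Sema5a. Replicate 3 of siControl was highest for Plxnc1 at 114 CPM (nearest other 104 CPM) and lowest for Sema3f at 54.8 CPM (nearest other 59.7 CPM). Replicate 2 of siControl was highest for Sema3g at 3.47 CPM (nearest other 2.02 CPM), and replicate 1 of siControl was highest for Sema6a at 73.8 CPM (nearest other 57.8 CPM).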

How the results depend on the processing

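Of the 26 called guidance genes, 13 passed under every alternative run and all 26 kept their direction. Members called higher numbered 7, but 12 with library totals, 4 with either TPM pseudocount and 5 to 11 with 1 library left out (11 without siPAK4 replicate 3). Members called lower numbered 19, but 11 with either TPM pseudocount and 12 to 19 with 1 library left out (12 without siControl replicate 2), 14 with a mean of at least 1 CPM, which tests 47 members, and 22 by DESeq2. Partner genes called higher numbered 7, but 4 with either TPM pseudocount and 3 to 7 with 1 library left out, and partner genes called lower numbered 17, but 10 with a pseudocount of 1 and 11 with 0.1, and 15 to 19 with 1 library left out. Of all genes tested, 26.9% were called with the main settings, 31.9% with library totals and 29.9% by DESeq2. That share was 21.4% with a pseudocount of 1, 21.3% with 0.1 and 32.8% with a mean of at least 1 CPM. With 1 library left out it lay between 19.4% and 30.2%. Values near 0 of uncalled members changed sign. The log2 fold change of Efnb1 was 0.0111 and the log2 fold change of Efnb2 was 0.0395 with library totals. The log2 fold change of Plxnd1 was −0.00706 with limma-voom, −0.00677 with the replicate block and between −0.064 and 0.13 with 1 library left out. The log2 fold change of Unc5b was 0.073 with library totals, 0.018 and 0.019 with TPM and between −0.065 and 0.046 with 1 library left out, and Efnb2 lay between −0.11 and 0.0113 with 1 library left out. With the replicate number as a block, 7 members were higher and 18 lower, 24 of the 26 calls being shared: Ephb1 (adjusted p = 0.0734) and Sema4g (0.0694) were lost and Robo4 (0.0429) was gained, and of the partner genes named Ngef (0.0566) was lost. Over all genes tested, the deviations of same-numbered libraries from their group means correlated at 0.035, −0.047, 0.104 and −0.037. With so few libraries these values cannot settle whether the numbers pair the samples. The causes of these differences were not tested. Genes under 1 TPM rest on few reads, which limits their precision.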
